A study of Mus musculus with 6 samples.

Results

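Carriers of the amino acid transporter families were measured in leukocyte-enriched cells of serrated polyps and of the cecum around them. Members were the genes whose platform symbol belonged to the Slc1a, Slc3a, Slc6a, Slc7a, Slc36a, Slc38a or Slc43a family, 57 genes on 81 probes. A gene was tested when 3 or more of the 6 arrays detected a probe of it (detection p-value under 0.05), and its brightest such probe was used. This left 28 of the 57 genes, among 9246 tested genes in all, and 29 genes were not tested. One of the 28, Slc7a6os, lies on the strand opposite Slc7a6 and was matched by its symbol only, so that 27 carriers were tested.

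Gene expression was profiled on 6 Illumina mouse BeadChip arrays, 3 of serrated polyps (SP) and 3 of normal surrounding cecum (Surrounding), with 1 sample of each kind from each of 3 HBUS mice. HBUS mice are known to carry transgenes for the growth factor HB-EGF and for a viral chemokine receptor in the intestinal epithelium. Both groups came from these same mice, so both carry the transgenes, and the age and sex of the mice are not given in the sources used here. Epithelium was shaken loose with EDTA, the tissue left behind was digested with dispase, and cells bearing the leukocyte protein CD45 were held on a magnetic column.

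Amino acids cross membranes through carriers that work as exchangers, as sodium-driven pumps or together with protons. Enterocytes, the absorbing cells of the gut lining, take up dietary amino acids through brush border carriers such as those of Slc6a19 and Slc7a9 and pass them to the blood through basolateral exchangers. Leukocytes raise other carriers when they are activated, among them the leucine exchanger of Slc7a5 with its heavy chain Slc3a2, the glutamine carriers of Slc1a5 and Slc38a2, and the cystine importer of Slc7a11. A transcript of a bulk sample does not tell which cells carried it, and fewer cells of a type cannot be told apart from less RNA per cell.

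The samples held epithelial as well as leukocyte RNA. Median scanner signals ran from 97.3 in the SP sample of mouse 3 to 109.3 in that of mouse 2, and between 12657 and 13796 probes were detected per array. Ptprc, which encodes CD45, was lower in the SP sample of every mouse, by 0.99 on the log2 scale (polyp minus surrounding -0.99 ± 0.11, SE, n = 3 pairs, limma adjusted p = 0.0052), and it was detected on 2 of 3 SP arrays. By the adjusted limma test 5.0% of all tested genes rose and 6.46% fell. Of 15 tested T cell markers 14 fell, and of 10 B cell markers 9 fell. Of 13 epithelial markers 3 rose and 10 did not pass the test, and of 7 tested markers of small-intestinal enterocytes 4 rose. Of 14 neutrophil markers 7 rose, as did 11 of 11 endothelial markers. These counts moved with the samples used in limma. Without mouse 2, without mouse 3 and in the unpaired fit 0 epithelial markers passed, and 1 passed with arrays scaled to the same median. The number passing was 2 enterocyte markers without mouse 3 and 1 unpaired, 5 endothelial markers without mouse 2, 6 without mouse 3 and 3 unpaired, 4 neutrophil markers unpaired, and 0 T cell markers unpaired. The part these shifts play in the results on single carriers was not tested.

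Of the 28 tested members, 3 rose and 1 fell in polyp samples, in a limma fit with mouse as a block over all 13409 tested probes and with Benjamini-Hochberg adjustment. The genes that rose were Slc7a9, which was detected on SP arrays only, Slc7a11 and Slc6a8, and the one that fell was Slc38a2. These 4 were 14.3% of the tested members, against 11.5% of all tested genes by the same rule (5.0% higher and 6.46% lower), so that the share was near the background. Counted by probe, 10.4% of all tested probes passed. The median change of the 28 members was 0.05 on the log2 scale, beside 0.02 over all tested genes. The difference had the same sign in the 3 mice for 16 of the 28, while 51.7% of all tested genes had one sign. The 3 SP arrays lay above the 3 Surrounding arrays for 6 members, against 10.7% of all tested genes, and below them for 1, against 9.53%. By family, Slc7a gave 2 of its 8 tested genes, Slc6a 1 of 7 and Slc38a 1 of 5. In limma none of the 5 tested Slc1a genes passed, nor did the single tested genes of the Slc3a, Slc36a and Slc43a families. At an unadjusted p under 0.05, 6 members were higher and 2 lower, while 14.4% of all tested genes were higher and 14.5% lower at that threshold.

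**Figure D1:**
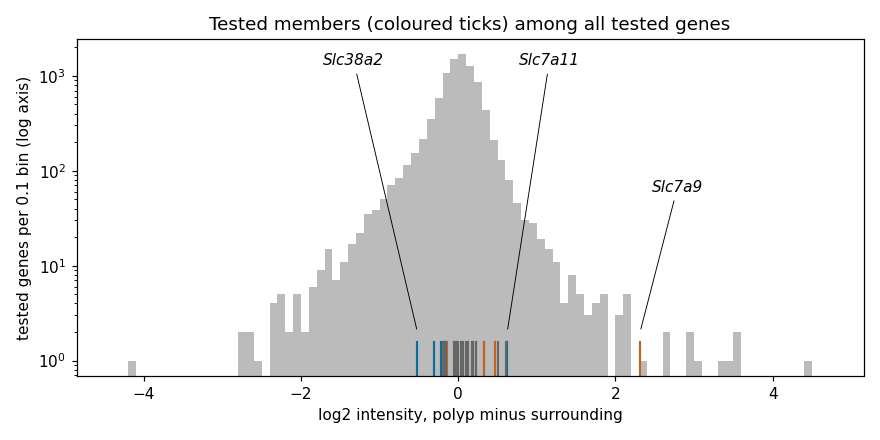
Histogram of the change in log2 intensity, polyp minus surrounding, over the 9246 tested genes (grey, log count axis), with a tick for each of the 28 tested members: orange for epithelial carriers, blue for leukocyte carriers, purple for the shared carrier Slc7a7 and grey for the others. Slc7a9 has a fitted change of 2.31, in the right tail, and the other members lie between -0.52 and 0.62.

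Among carriers of the absorbing epithelium, Slc7a9 was the only one of 5 tested genes that passed the test. It encodes the light chain of the brush border exchanger for cystine and dibasic amino acids, which is inherited in a defective form in cystinuria, and it works as a pair with the heavy chain of Slc3a1, which was not analysed here. On the normalised log2 scale it read 7.06, 6.68 and 6.03 in the SP samples of mice 1, 2 and 3. In the Surrounding samples of the same mice it was 4.28, 4.29 and 4.28. All SP samples thus lay far above all Surrounding samples, where the probe was not detected on any array, and the surrounding values differed little among themselves.

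The fitted change of Slc7a9 was 2.31 ± 0.19 log2 (SE, 3 pairs of samples, limma adjusted p = 0.00305), with differences of 2.78, 2.40 and 1.76 in mice 1, 2 and 3. Slc7a9 met the detection rule through its SP arrays alone. Its Surrounding values lay at background, so the SE and p-value do not measure the spread of the surrounding level among mice. Since the surrounding arrays give only a bound, the mean polyp signal was at least 4.04-fold higher with the offset of 16. The surrounding level was taken as the higher of the probe's own value and the lowest detected signal of each array. This bound is a mean over the 3 pairs, so a single mouse can lie below it. It does not hold for other handling of background, which gave smaller changes. Another probe of Slc7a9 was not detected on any array, SP arrays included, and was not tested. Its means were 4.44 in SP and 4.40 in Surrounding samples. A tested probe that was dimmer than the first gave the same direction. Like the first, it was detected on the 3 SP arrays and on no Surrounding array, so the same limit holds for its SE and p-value. It read 5.81, 5.60 and 5.27 in SP samples and 4.21, 4.24 and 4.31 in Surrounding samples. Its change was 1.30 ± 0.14 (limma adjusted p = 0.0052), and its mean polyp signal was 1.97-fold above a bound taken in the same way.

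The size of the Slc7a9 change moved with the handling of background. It was 0.89 in the authors' processed values, from which none was taken (limma adjusted p = 0.0122), and with an offset of 50 it was 1.30. Scanner signals of the bright probe were 201.2, 201.0 and 126.1 in SP samples against 95.9, 96.7 and 95.9 in Surrounding samples. It passed the test in each of the 11 alternatives that could be run on it, among them the unpaired fit (limma adjusted p = 0.0102) and the fits without any single mouse. All of these fits rest on Surrounding arrays that did not detect the probe.

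Of 7 tested markers of small-intestinal enterocytes, 4 rose in the same samples and 3 did not pass, while 5.0% of all tested genes rose. The summed background-corrected intensity of the list, over 12 genes on the array, was 2381, 1611 and 1299 in the SP samples of mice 1, 2 and 3, and 661.2, 988.4 and 871 in the Surrounding samples. Among SP samples these sums and Slc7a9 were both highest in mouse 1 and lowest in mouse 3. Neutrophil, T cell, macrophage and smooth muscle sums had the same order among SP samples, and those of the other marker lists did not. The order was thus not particular to enterocytes, and a link to Slc7a9 was not tested. Treh, the brush border trehalase, rose by 1.18 ± 0.15. Sis, the brush border sucrase-isomaltase, also rose, but it was detected on only 1 of 3 Surrounding arrays, so that the size of its change is uncertain. Of the same list Fabp2, Apoc3, Slc10a2 and Gata4 were not detected on any of the 6 arrays, and the changes of Slc5a1, the sodium-driven glucose carrier (0.18, limma adjusted p = 0.293), Mep1a, a subunit of the brush border protease meprin (-0.16, limma adjusted p = 0.436), and Apoa1, an apolipoprotein not detected on any Surrounding array (limma adjusted p = 0.119), did not pass. General epithelial markers summed to 52560, 55170 and 55900 in the SP samples of mice 1, 2 and 3. In the Surrounding samples they summed to between 46340 and 49290.

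Slc6a19 encodes the main sodium-driven carrier of neutral amino acids in the enterocyte brush border, whose loss is known from Hartnup disorder. It read 5.66, 4.67 and 4.86 in the SP samples of mice 1, 2 and 3, against 4.57, 4.57 and 4.65 in Surrounding samples. The SP values all lay above the Surrounding values, but only the SP sample of mouse 1 stood clear of them. Before normalisation the scanner signal in mouse 3 was lower in the SP sample, at 99.9 against 105.8, and in mice 1 and 2 it was higher. The change of 0.47 ± 0.20 did not pass (limma adjusted p = 0.201, 95% interval -0.03 to 0.96), and without mouse 1 it was 0.15.

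Slc1a1, the sodium-driven carrier of glutamate and aspartate, was likewise highest in the SP sample of mouse 1. It read 5.06, 4.96 and 4.50 in SP samples and 4.43, 4.72 and 4.40 in Surrounding samples, and was detected on 3 of the 6 arrays. Its change of 0.32 ± 0.13 did not pass (limma adjusted p = 0.167). The groups overlapped, as the SP value of mouse 3 lay below the Surrounding value of mouse 2.

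The basolateral exchanger gene Slc7a8, which encodes a light chain that hands neutral amino acids on to the blood, read 6.05, 5.43 and 5.22 in SP samples and 5.51, 5.23 and 5.30 in Surrounding samples. Its difference was above 0 in mice 1 and 2 and below 0 in mouse 3, with a change of 0.22 ± 0.13 (limma adjusted p = 0.344), and a dimmer probe gave -0.11. Slc43a2, a basolateral facilitator of branched-chain and aromatic amino acids, read 4.43, 4.69 and 4.48 in SP samples and 4.74, 4.60 and 4.68 in Surrounding samples. Its change was -0.14 ± 0.11 (limma adjusted p = 0.47), with a 95% interval from -0.41 to 0.13, and only 1 SP array detected it. These intervals are not adjusted over the genes tested.

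The other 3 epithelial carriers could not be tested. The probes of Slc6a14, the broad amino acid pump known from the large bowel, and of the proline carriers Slc6a20a and Slc6a20b were not detected on any array. Scanner signals of Slc6a14 were between 86.1 and 97.1, below the array medians of 97.3 to 109.3. Over the 5 tested epithelial carriers, 4 changes were above 0 and 1 below, with a median of 0.32. Of the 9246 tested genes, 4888 changed by more than 0 and 4358 by less.

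Slc7a7 is at home in both kinds of cell: its light chain exports dibasic amino acids across the basolateral membrane of enterocytes and is also expressed in macrophages. It read 8.03, 7.86 and 7.56 in SP samples and 7.70, 7.46 and 7.31 in Surrounding samples. Each SP sample lay above the Surrounding sample of its mouse, although the groups overlapped across mice. Before normalisation the scanner signal in mouse 3 was lower in the SP sample, at 219.8 against 255, and in mice 1 and 2 it was higher. The change of 0.33 ± 0.09 missed the threshold (limma adjusted p = 0.0785), and a second probe of similar signal gave 0.25 ± 0.13. Slc7a7 passed in 4 of 12 alternatives, among them the authors' processed values, where its change was 0.24 (limma adjusted p = 0.0428). Of 17 tested monocyte and macrophage markers 3 fell (0 called without mouse 2, 1 without mouse 3 and 7 without mouse 1), while 6.46% of all tested genes fell. The sum of these markers was between 19950 and 35240 in SP samples and between 26010 and 38940 in Surrounding samples.

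**Figure D2:**
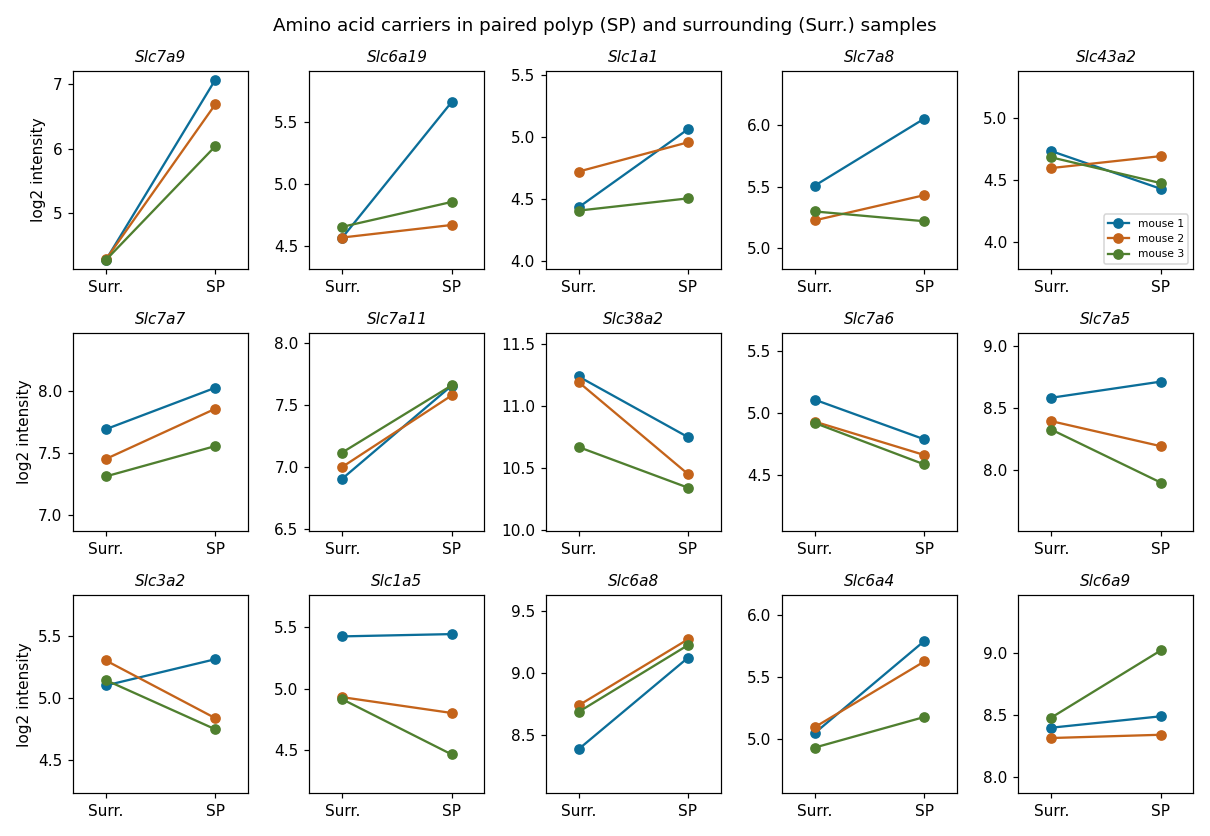
Normalised log2 intensity of 15 carriers in the Surrounding (Surr.) and SP sample of each mouse, with a line joining the 2 samples of a mouse; the panels differ in their vertical range. Slc7a9 lies at 4.28 to 4.29 in Surrounding samples, where it was not detected, and at 6.03 to 7.06 in SP samples, Slc7a11 and Slc6a8 rose by similar amounts in the 3 mice, and the lines of Slc7a5 and Slc3a2 slope up in mouse 1 and down in mice 2 and 3.

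Among carriers known from leukocytes, Slc7a11 rose and Slc38a2 fell, and 4 other tested genes did not pass. Slc7a11 encodes the light chain of the exchanger that imports cystine for glutathione and releases glutamate, and it is induced in activated macrophages. It read 7.65, 7.57 and 7.66 in the SP samples of mice 1, 2 and 3 and 6.90, 7.0 and 7.11 in the Surrounding samples. All SP samples lay above all Surrounding samples, and the SP values lay close to one another. The change was 0.62 ± 0.09 log2 or 1.54-fold (SE, 3 pairs of samples, limma adjusted p = 0.0151), with differences of 0.75, 0.58 and 0.54.

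The Slc7a11 call was lost in the unpaired fit (limma adjusted p = 0.0576), without mouse 2 (0.0868) and without mouse 3 (0.0606), and it held without mouse 1 (0.0171). Its change without 1 mouse ran from 0.56 to 0.66. Before normalisation the scanner signal in mouse 3 was 230.1 in the SP sample and 231.1 in the Surrounding sample. The difference in this mouse, whose SP array was dimmer, thus appeared only with background correction and scaling. The parts of these steps were not separated. In mice 1 and 2 the scanner signals of 262.1 and 308.2 in SP samples stood against 200.7 and 214.0. Neutrophil markers summed to between 10480 and 19590 in SP samples and between 6354 and 10380 in Surrounding samples.

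Slc38a2 encodes a sodium-driven carrier of glutamine, alanine and other small neutral amino acids, which many cells raise when amino acids run short. Its brightest probe read 10.75, 10.45 and 10.34 in SP samples and 11.24, 11.20 and 10.67 in Surrounding samples. Each SP sample was below the Surrounding sample of its mouse, but the SP value of mouse 1 exceeded the Surrounding value of mouse 3. The change was -0.52 ± 0.11 or 1.43-fold lower (SE, n = 3 pairs, limma adjusted p = 0.0394).

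The fall of Slc38a2 was seen with 1 of its 3 tested probes. The second read 7.95 on average in SP samples and 7.98 in Surrounding samples and changed by -0.04 ± 0.14 (limma adjusted p = 0.892), and the dimmest changed by 0.09 ± 0.09. Without mouse 2 the adjusted p of the brightest probe was 0.233, without mouse 3 it was 0.079, and in the unpaired fit it was 0.276. T cell markers summed to between 1140 and 2594 in SP samples and between 2848 and 9326 in Surrounding samples, and B cell markers to between 498.3 and 643.4 against 1660 to 3318.

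Slc7a11 and Slc38a2 are both known targets of ATF4, the transcription factor of the amino acid response, and they moved in opposite directions here. Their promoters are shown for that reason, from RefSeq sequence of build GRCm38.p6, 250 bases before to 50 bases after the gene start, 5′ to 3′ on the minus strand on which both genes lie. Slc7a11 is at chr3:50443564-50443863 and Slc38a2 at chr15:96699679-96699978. Capitals mark matches on either strand to TGATGNAA, the C/EBP-ATF response element that ATF4 binds, or to TGACNNNGC, the antioxidant response element that NRF2 binds.
Slc7a11: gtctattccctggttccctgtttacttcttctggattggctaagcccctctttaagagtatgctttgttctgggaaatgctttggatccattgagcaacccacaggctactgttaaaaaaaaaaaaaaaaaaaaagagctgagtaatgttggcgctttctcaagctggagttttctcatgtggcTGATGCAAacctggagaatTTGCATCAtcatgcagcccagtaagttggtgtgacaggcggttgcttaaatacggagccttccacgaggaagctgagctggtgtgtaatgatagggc
Slc38a2: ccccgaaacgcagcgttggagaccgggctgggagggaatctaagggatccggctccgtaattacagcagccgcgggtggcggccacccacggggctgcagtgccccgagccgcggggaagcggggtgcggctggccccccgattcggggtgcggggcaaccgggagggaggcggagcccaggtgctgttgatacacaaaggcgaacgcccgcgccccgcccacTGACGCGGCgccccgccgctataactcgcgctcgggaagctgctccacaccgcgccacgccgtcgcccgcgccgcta
The Slc7a11 window held 2 matches to TGATGNAA, which began 66 and 47 bases before the gene start and faced opposite strands, and no match to TGACNNNGC. The Slc38a2 window held no match to TGATGNAA and 1 to TGACNNNGC, 27 bases before the start. The response element known for Slc38a2 lies in an intron, outside this window. Of all 32851 promoter windows of this length, 3.97% held TGATGNAA and 12.4% held TGACNNNGC, which is 4.51% and 14% of genes with a window. Promoters were given for 22 of the 28 tested members, of which 3, Slc7a11, Slc7a7 and Slc1a4, had a window with TGATGNAA, 5 had one with TGACNNNGC and 3 one with GTTAAT, a core of the site of the epithelial factor HNF1. The windows of both Slc7a9 starts held no exact match to these motifs, nor to GTTAAT, which 7.1% of all windows and 8.24% of genes held. Sites that differ from a motif in any fixed letter were not counted, so a similar site is not excluded. A match is a run of letters and was not tested as a binding site.

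The heterodimer of Slc7a5 and Slc3a2 brings leucine and other large neutral amino acids into activated lymphocytes. Slc7a5, its light chain, read 8.71, 8.19 and 7.90 in SP samples and 8.58, 8.40 and 8.33 in Surrounding samples. Slc3a2, the heavy chain also known as CD98, read 5.31, 4.83 and 4.74 in SP samples and 5.10, 5.30 and 5.14 in Surrounding samples. For both genes the SP sample was above its Surrounding sample in mouse 1 and below it in mice 2 and 3.

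The change of Slc7a5 was -0.17 ± 0.13 (limma adjusted p = 0.45, 95% interval -0.48 to 0.15). That of Slc3a2 was -0.22 ± 0.15 (limma adjusted p = 0.407, 95% interval -0.59 to 0.15). Neither passed the test, and the intervals leave room for a fall as for no change. Without mouse 1 Slc3a2 changed by -0.43 and passed (limma adjusted p = 0.0461), and Slc7a5 changed by -0.31 and did not (limma adjusted p = 0.135).

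Slc7a6, the light chain of a leukocyte exchanger of dibasic and neutral amino acids, read 4.79, 4.66 and 4.59 in SP samples and 5.11, 4.93 and 4.92 in Surrounding samples. All SP samples were below all Surrounding samples, with differences of -0.32, -0.27 and -0.33, but the change of -0.31 ± 0.09 did not pass (limma adjusted p = 0.0846). In the authors' processed values it was -0.08. Slc1a5, the glutamine exchanger of dividing cells, read 5.44, 4.80 and 4.47 in SP samples and 5.42, 4.93 and 4.91 in Surrounding samples. It changed by -0.18 ± 0.12 (limma adjusted p = 0.362), and mouse 1 was higher than the other mice in both groups. A second probe of Slc1a5, detected on 4 of 6 arrays, was lower in the SP sample of each mouse, with a change of -0.25 ± 0.09 that did not pass (limma adjusted p = 0.137).

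The arginine carriers of leukocytes were at the limit of detection. Neither probe of Slc7a1, the constitutive arginine carrier, was detected on any array. Slc7a2, the arginine carrier induced in activated macrophages, was detected on 1 SP array and on no Surrounding array, and Slc38a1, a glutamine carrier of T cells, on 1 Surrounding array and on no SP array. Over the 6 tested leukocyte carriers 1 change was above 0 and 5 below, with a median of -0.20, against a median of 0.32 over the 5 epithelial carriers. Of the 9246 tested genes, 4888 changed by more than 0 and 4358 by less. The epithelial class includes Slc7a9, which met the detection rule through its SP arrays alone, so the filter itself favours a higher value there. The difference between the classes was not tested, and their ranges, -0.52 to 0.62 and -0.14 to 2.31, overlap.

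**Figure D3:**
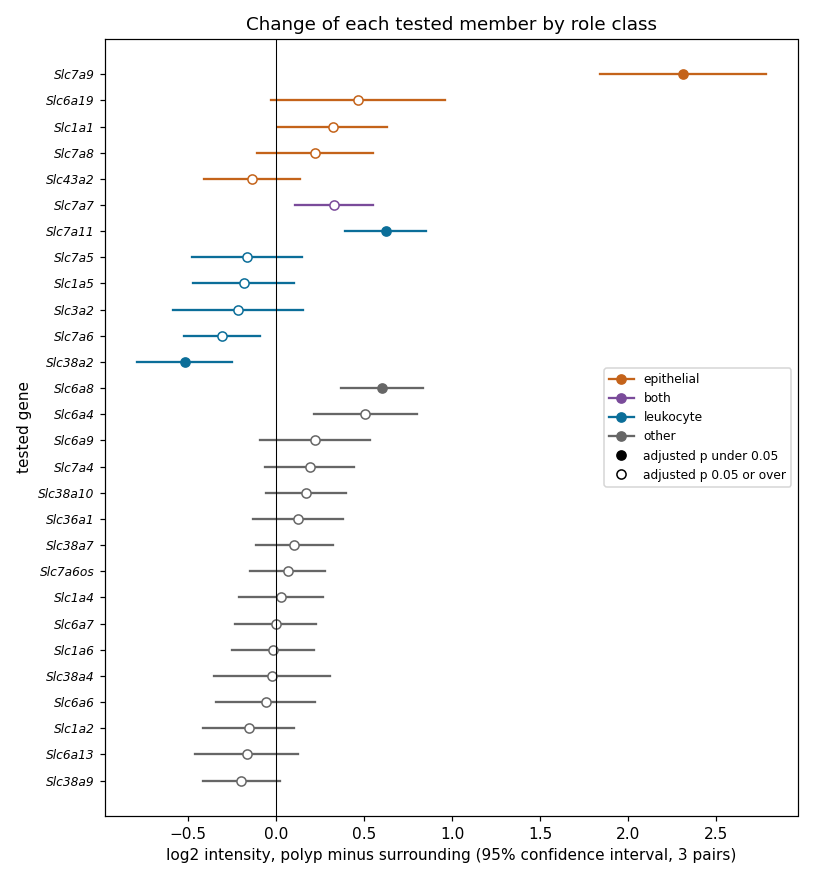
Change in log2 intensity, polyp minus surrounding, of the 28 tested members with 95% intervals of the limma fit over 3 pairs, unadjusted, ordered by size within the epithelial, shared, leukocyte and other classes. Filled points passed the test: Slc7a9 at 2.31, Slc7a11 at 0.62, Slc6a8 at 0.60 and Slc38a2 at -0.52.

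Outside these classes Slc6a8, the creatine carrier, rose. It read 9.12, 9.27 and 9.22 in SP samples and 8.38, 8.73 and 8.68 in Surrounding samples, and all SP samples lay above all Surrounding samples. The change was 0.60 ± 0.10 log2 or 1.52-fold (SE, n = 3 pairs, limma adjusted p = 0.0169), with differences of 0.74, 0.53 and 0.54. Before normalisation the scanner signal in mouse 3 was 552.3 in the SP sample and 530.8 in the Surrounding sample. The difference in this mouse, whose SP array was dimmer, thus appeared largely with background correction and scaling, and the parts of these steps were not separated. In mice 1 and 2 the scanner signals were 587.1 and 808.6 in SP samples against 412.3 and 520.8. The adjusted p was 0.0977 in the unpaired fit, 0.0888 without mouse 2 and 0.0679 without mouse 3.

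Slc6a4, the serotonin carrier of enterocytes, platelets and nerve cells, read 5.79, 5.62 and 5.18 in SP samples and 5.05, 5.10 and 4.93 in Surrounding samples. Before normalisation the SP signal of mouse 3 was below the Surrounding signal, at 104.9 against 111.7, and that of mice 1 and 2 was above it. After normalisation the groups did not overlap, yet the change of 0.51 ± 0.12 fell just short of the threshold (limma adjusted p = 0.0514). It passed when only probes detected on all 6 arrays were tested (limma adjusted p = 0.0443) and with a trended, robust prior (0.0467), and its change was 0.17 in the authors' processed values. Tph1, the enzyme that makes serotonin in enteroendocrine cells, changed by -0.32 (limma adjusted p = 0.228). Of 7 tested enteroendocrine markers 2 fell (1 without mouse 2 or mouse 3, and 5 called without mouse 1), while 6.46% of all tested genes fell.

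Of the other transmitter and osmolyte carriers, Slc6a6, the taurine carrier, changed by -0.06 ± 0.12 and read between 10.64 and 11.36 on the 6 arrays. Slc6a9, a glycine carrier, changed by 0.22 ± 0.13, with a difference of 0.54 in mouse 3 and at most 0.09 in mice 1 and 2. Slc6a7, a proline carrier best known from the brain, and Slc6a13, a GABA and taurine carrier, changed by 0.00 and -0.17. None of these 4 passed the test in limma, nor at an unadjusted p under 0.05.

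Carriers of the lysosomal membrane, which pass amino acids from protein breakdown to the cytosol, did not pass the test in limma, nor at an unadjusted p under 0.05. The changes were 0.13 ± 0.10 for Slc36a1, a proton-driven carrier of small amino acids, 0.10 ± 0.09 for Slc38a7, a glutamine exporter, and -0.20 ± 0.09 for Slc38a9, the arginine sensor upstream of the kinase complex mTORC1. A second, dimmer Slc38a9 probe gave -0.24. The remaining tested members were Slc1a2, Slc1a4, Slc1a6, Slc38a4, Slc38a10, Slc7a4 and Slc7a6os. Their changes lay between -0.16 for Slc1a2, a glutamate carrier best known from glia, and 0.19 for Slc7a4. Slc1a2 was detected on no SP array and on 3 Surrounding arrays. Of the 29 members not tested, 18 were detected on no array, 5 on 1 array and 6 on 2 arrays.

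Genes around amino acid uptake were read in the same fit. Of 23 tested genes of the ATF4 amino acid response, 3 rose and 1 fell, with a median change of 0.02, beside 0.02 over all tested genes. Over all tested genes 5.0% rose and 6.46% fell. Asns, asparagine synthetase, read 9.78, 9.26 and 9.56 in SP samples and 9.24, 8.91 and 9.19 in Surrounding samples, and rose by 0.42 ± 0.09 (limma adjusted p = 0.0432). Before normalisation its scanner signal in mouse 3 was lower in the SP sample, at 679.7 against 715, and in mice 1 and 2 it was higher. Ddit4, an inhibitor of mTORC1 that is also raised by low oxygen and glucocorticoids, rose by 0.72 ± 0.11, and Nupr1, a stress-induced nuclear protein, by 0.55 ± 0.13. Mthfd2, an enzyme of mitochondrial folate metabolism, fell by 0.42 on the log2 scale (limma adjusted p = 0.0418). Atf4 itself changed by -0.07 (limma adjusted p = 0.805), and Trib3 was not detected on any array.

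Of 14 tested genes of glutathione synthesis and NRF2 targets, which include Slc7a11, 4 rose and 10 did not pass, with a median of 0.23. By the same rule 5.0% of all tested genes rose and 6.46% fell. Gpx2, the glutathione peroxidase of gut epithelium, read 12.61, 12.55 and 12.70 in SP samples and 11.96, 12.00 and 12.24 in Surrounding samples, and rose by 0.56 ± 0.09 (limma adjusted p = 0.0189). Gss, glutathione synthetase, rose by 0.48 ± 0.09, and Srxn1, which repairs oxidised peroxiredoxins, by 0.52 ± 0.12. The scanner signal of Gss in mouse 3 was lower in the SP sample before normalisation, at 412 against 421.4, and in mice 1 and 2 it was higher. The subunits of the rate-limiting enzyme of glutathione synthesis, Gclc and Gclm, changed by -0.13 and 0.08 and did not pass, nor did Hmox1 (-0.39) or Nqo1 (0.15). Without mouse 1, 7 genes of this list passed. Without mouse 2, without mouse 3 and in the unpaired fit, 0 genes passed in limma in this list, in the ATF4 list and among the glutamine and branched-chain enzymes described next.

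**Figure D4:**
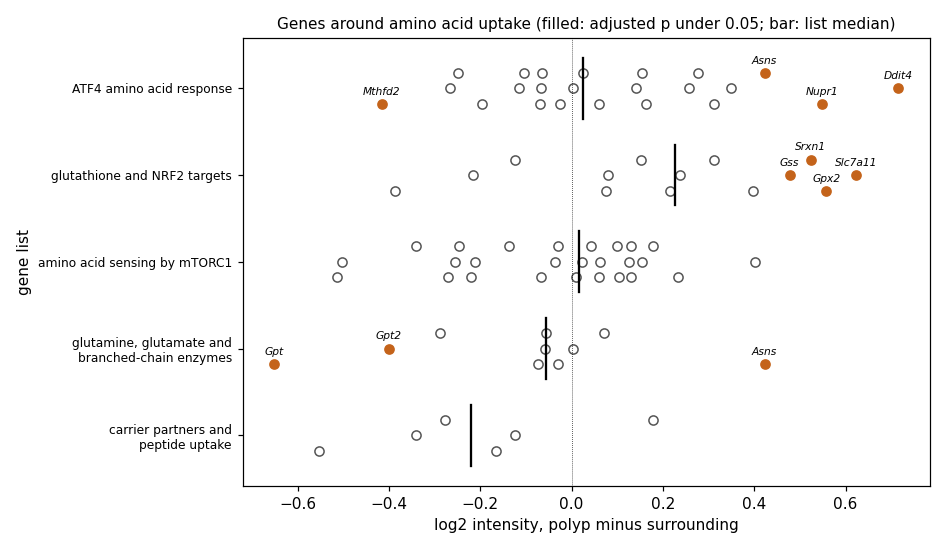
Change in log2 intensity, polyp minus surrounding, of each tested gene in 5 lists around amino acid uptake, with filled points for an adjusted p under 0.05 and a bar at the list median. The 4 genes of the glutathione list that passed lie between 0.48 and 0.62, and no gene of the mTORC1 or the peptide uptake list passed.

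Among 10 tested enzymes of glutamine, glutamate and branched-chain amino acids, 1 rose, Asns, and 2 fell, beside 5.0% and 6.46% of all tested genes. The alanine transaminases Gpt and Gpt2 were the 2 that fell. Gpt read 8.69, 8.53 and 8.14 in SP samples and 9.38, 9.20 and 8.74 in Surrounding samples, and changed by -0.65 ± 0.09 (limma adjusted p = 0.0109), while Gpt2 changed by -0.40 ± 0.09 (limma adjusted p = 0.0407). All SP samples lay below all Surrounding samples for both. Of 26 tested genes of amino acid sensing by mTORC1, 0 passed in limma, while at an unadjusted p under 0.05 there were 2 higher and 5 lower. At that threshold 14.4% of all tested genes were higher and 14.5% lower. The largest changes of the mTORC1 list were those of the leucine-sensor family genes Sesn1 (-0.51, limma adjusted p = 0.0669) and Sesn3 (-0.50, limma adjusted p = 0.0609). Of 6 tested partner, peptidase and peptide carrier genes, 0 passed in limma and 3 were lower at an unadjusted p under 0.05, among them the peptide carrier Slc15a2 (-0.55, limma adjusted p = 0.0651). Cltrn, a partner that helps carriers of the Slc6a19 type reach the membrane, was not detected on any array, and Slc15a1, the peptide carrier of the small-intestinal brush border, was detected on 1 SP array.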

How the data were processed

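Per the labels' protocols, biotin-labelled cRNA of CD45-enriched cells was hybridised to an Illumina mouse BeadChip, 1 array per sample. Per the file headers, the scanner table gives 1 linear intensity and 1 detection p-value for each probe on each array. The authors' processed intensities, deposited separately, were equal within 0.005 to quantile-normalized scanner values without background subtraction. GenomeStudio and limma 3.14.4 appear in the submitters' processing notes with no role stated, and a genome build is not given in the sources used here.

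In R 4.3.3 with limma 3.58.1, intensities were corrected by normexp from the detection p-values with an offset of 16, then brought to a common distribution by quantiles and converted to log2. Background correction enlarges and a larger offset shrinks the change of dim probes such as Slc7a9. Of 25697 probes, 13409 were detected at 0.05 on 3 or more arrays and were tested, with terms for mouse and tissue in lmFit and eBayes (2 residual and 4.04 prior degrees of freedom), two-sided, with a Benjamini-Hochberg adjusted p under 0.05 as the threshold; 1399 changed. The number of arrays and, for dim probes, the signal over background limit the precision. Symbols came from the platform annotation, and all 57 member symbols were in the RefSeq gene table. The design text ties samples to mice: deviations from the group mean correlated by 0.571, 0.564 and 0.614 within mice. Per the labels, both samples of each mouse sat in adjacent positions of 1 chip.

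The members, role classes, lists and motifs were chosen with earlier results of these data known. Every tested member is accounted for, with values per array for those that passed and for the epithelial and leukocyte classes. Of each pathway list at most the 5 largest changes are named; other genes of the pathway and marker lists (Atf4, Trib3, Gclc, Gclm, Nqo1, Hmox1, Cltrn, Slc15a1, Sis, Treh, Slc5a1, Mep1a, Apoa1, Tph1) were chosen after their values were seen. Alternatives covered the block, background, offset, scaling, prior, filter and each mouse.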

Additional observations from a re-analysis of the deposited data

How the results depend on the processing

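The mouse term is the replicate block. Without it 1 of the 28 members, Slc7a9, passed in place of 4, and 183 probes in place of 1399. Leaving out 1 mouse at a time gave 1 to 5 members and 412 to 1927 probes, with fewer pairs and another variance prior; without mouse 2 and without mouse 3 it was again 1 member. The other alternatives gave 3 to 6 members and 947 to 1808 probes, and counting all tested probes of members gave 5. With arrays scaled to the same median, 28.9% of changed probes were rises, against 44.3%, and with cyclic loess 37.8%. Slc38a2 also missed the threshold with no filter on dim probes (limma adjusted p = 0.0719). Members that did not pass changed sign around 0: Slc1a4 was -0.0539 with median scaling and -0.0217 with cyclic loess, and Slc6a7 was 0.000228 uncorrected for background, 0.00033 in the authors' values and 5.98e-05 with an offset of 50. Leaving out 1 mouse gave -0.0141 to 0.107 for Slc1a4, -0.0818 to 0.0391 for Slc1a6, -0.173 to 0.14 for Slc38a4, -0.147 to 0.0682 for Slc6a6 and -0.0523 to 0.0517 for Slc6a7. The cause of these shifts was not tested. Low signal over background limits Slc7a9, Slc6a19, Slc1a1, Slc43a2, Slc1a2 and Slc6a13, each detected on 3 or 4 arrays; none of these could be run when detection on all 6 arrays was asked.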

Other observations

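The polyp minus surrounding difference was highest in mouse 1 for 8 of the 11 tested epithelial and leukocyte carriers, and for 15 of all 28 tested members. The same count over all tested genes was not made, so this order cannot be read as particular to carriers. Slc43a2, Slc38a2 and Slc7a6 were the exceptions among the 11.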
